A study of Mus musculus with 24 samples.

Results

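Ileal gene expression of germ-free mice was compared with that of conventional mice after both had received long-chain β2→1-fructan, a plant fiber of the inulin type. The comparison rests on 4 germ-free and 4 conventional mice among the 24 mice of the series, chosen by their sample titles, with 1 array per mouse. All 18820 genes with a probe set of 1 gene symbol were described, with no filter on low values. All animals were C57BL/6OlaHsd males of 8 weeks on a D12450B diet for at least 2 weeks, and the fiber was gavaged daily for 5 days at 10 mg per dose. RNA came from whole terminal ileum, so epithelium, immune cells, muscle, nerves and attached fat were read together, and fewer cells of a type cannot be told apart from less RNA per cell. The germ-free mice came from a breeding colony of Radboud University and were tested for sterility, whereas the conventional mice, kept free of specified pathogens, were bought from Envigo. The fiber given to the germ-free mice had been irradiated with 25 kGy, which degraded part of its longer chains, and that given to the conventional mice had not. The presence of a microbiota, the source of the mice and the irradiation therefore cannot be told apart here. Pairs of germ-free and conventional groups on water and after short-chain fructan, 4 mice per group, served only to show where the pair after long-chain fructan differed.

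The terminal ileum is the stretch of small intestine with many bacteria, and it meets them with IgA, antimicrobial peptides, a mucus layer and lymphocytes that sit between the epithelial cells. In textbook accounts, interferons and IL-22 made by lymphocytes of the gut wall, innate lymphoid cells among them, switch on antigen presentation, oxidases and fucosylation in the epithelium. The same tissue takes up bile acids and vitamins and returns a signal on bile acid supply to the liver through the hormone FGF15. Inulin-type fructans escape the digestive enzymes of the host and are fermented by gut bacteria, which germ-free mice lack.

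Values are log2 expression values of the deposited RMA data, so a difference of 1 is a doubling, and they have a median per array of 4.92 to 4.98 over the 24 arrays. Across genes, which are not independent replicates, arrays of the same group correlated with r from 0.990 to 0.995. In the 8 arrays compared, the first principal component held 45.6% of the variance and placed the 4 germ-free mice at 19.7 to 22.9 and the 4 conventional mice at -24.0 to -18.7. The second held 13.9% and was lowest in germ-free replicate 4 (-23.6). Xist stayed at 2.16 to 2.96 in germ-free and 2.46 to 2.67 in conventional mice, and the Y-linked gene Eif2s3y was at 7.44 to 8.10 in germ-free and 7.67 to 7.90 in conventional mice. Of the 4 sex-linked genes measured, Uty was called in limma (log2 fold change -0.30, adjusted p = 0.038), with overlapping groups. Its call was lost when any of 5 mice was left out: germ-free replicate 1, 2 or 3, or conventional replicate 1 or 3 (log2 fold change -0.31 to -0.24). It was also lost in fits of the 8 arrays alone, of the 12 arrays of the long-chain and water groups, and with 1 prior for all genes (-0.30 each). With an adipocyte covariate, described below, it was lost as well (-0.32). Fabp6 and Slc10a2, the bile acid binding protein and the bile acid importer of ileal enterocytes, were read at 12.38 to 12.59 and 10.93 to 11.13 in germ-free mice, against 12.54 to 12.59 and 10.85 to 11.03 in conventional mice. Neither differed past the threshold (log2 fold changes -0.10 and 0.08).

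After long-chain fructan, 2983 of 18820 genes differed between germ-free and conventional ileum at an adjusted p under 0.05 in limma with Benjamini-Hochberg adjustment (15.9% of genes tested). Of these, 1369 were higher in germ-free mice (7.27% of all genes) and 1614 were lower (8.58%). The counts of list members called, given below, are to be set beside these shares. Large differences were mostly losses: 145 genes fell at least 2-fold and 44 at least 4-fold, against 55 and 7 that rose as much. Without conventional replicate 2, 906 genes rose and 1361 fell, and without germ-free replicate 2, 1508 rose and 1394 fell, so which direction held more calls depended on that mouse. The 4 germ-free and 4 conventional values did not overlap for 2991 genes (15.9% of genes), 2238 of which also passed the test. The median log2 fold change over all genes was 0.03. For a single gene that does not overlap, the exact permutation test over the 70 divisions of 8 mice gives a two-sided p of 0.029, the smallest it can give.

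The 15 largest decreases among genes without overlap were led by antibody genes. They comprised Ighg3, Igkc, Ighm and Jchain, 5 variable-segment genes of the antibody chains, the bile acid responsive hormone gene Fgf15, the tyrosine-degrading enzyme gene Tat, the granzyme gene Gzma, the chemokine gene Ccl5, the oxidase maturation factor gene Duoxa2 and Gm5431. Their log2 fold changes ran from -3.92 (a variable segment of the kappa light chain, standard error 0.60) to -3.04 (Jchain). The 15 largest increases comprised lipogenic genes (Thrsp, Me1, Fasn, Scd1), aldo-keto reductases (Akr1c19, Akr1c13), the solute carriers Slc5a4b and Slc5a12, the lipase inhibitor gene Angptl4, the esterase gene Aadac, the transferrin receptor gene Tfrc, and Mrap, Upk3b, Rab30 and A530016L24Rik. Of these 15, Thrsp, Fasn, Mrap and A530016L24Rik lost their call with an adipocyte list as a covariate, described below. Slc5a12, Mrap and A530016L24Rik lost theirs with a smooth muscle list as a covariate (log2 fold changes 0.96, 1.62 and 1.80). The log2 fold changes of the 15 ran from 2.64 (Thrsp, standard error 0.48) to 1.52 (Akr1c13, standard error 0.10) without a covariate. All 30 genes were also called, in the same direction, on water and after short-chain fructan.

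**Figure D1:**
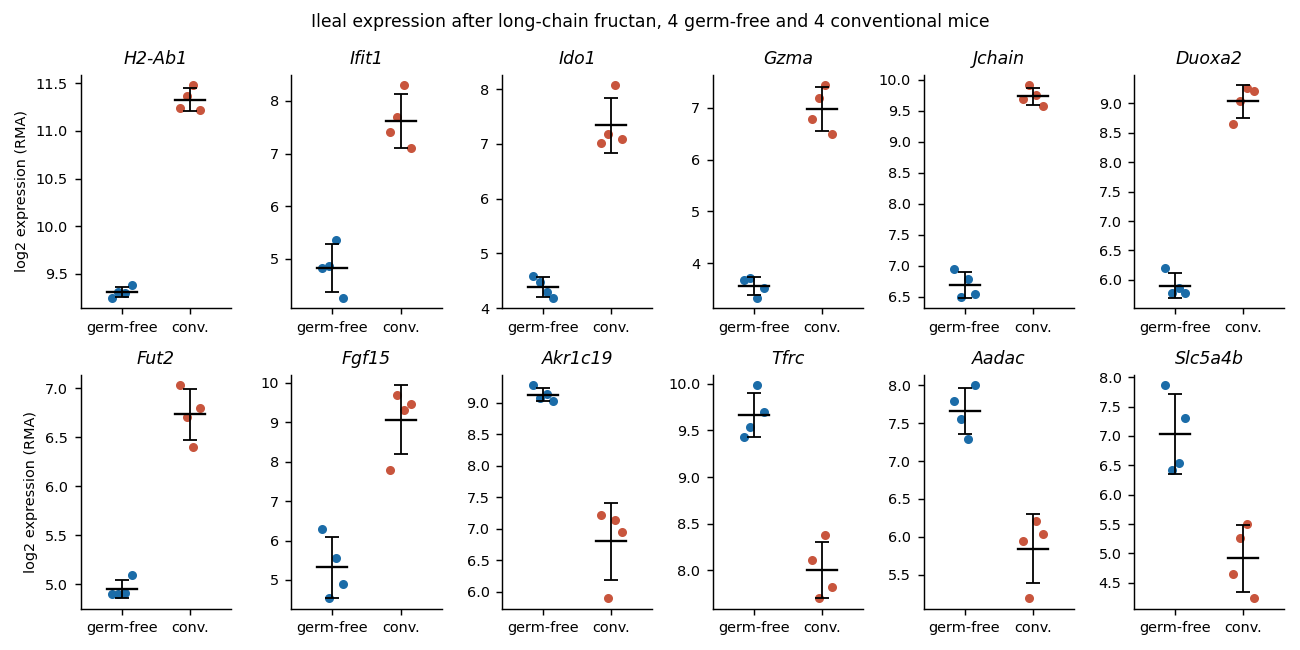
Log2 expression after long-chain fructan in each germ-free (left, blue) and conventional mouse (right, red) for 12 genes; points are mice, bars the mean and SD of 4 mice, and the axes do not start at 0. In each of the 12 panels the germ-free mice lie apart from the conventional mice, below them from H2-Ab1 to Fgf15 and above them from Akr1c19 to Slc5a4b.

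Genes of the MHC class II pathway, which shows peptides to helper T cells, had the 5 smallest p of the whole data set. H2-Ab1, a chain of the class II molecule itself, was 9.25, 9.31, 9.30 and 9.38 in the 4 germ-free mice, against 11.24, 11.37, 11.48 and 11.22 in the 4 conventional mice. The germ-free mice were tightly grouped, far below every conventional mouse, and 4.05-fold lower on average (adjusted p = 2.7e-14, standard error of the log2 fold change 0.09). The other chains and helpers of the molecule moved with it: the log2 fold change was -1.77 for H2-Eb1, -1.94 for H2-Aa, -1.86 for the invariant chain Cd74 and -2.11 for the peptide loader H2-DMa. Ciita, the transcription factor that governs this set, was 5.49, 4.98, 5.59 and 5.47 in germ-free mice and 6.49, 6.99, 7.13 and 6.33 in conventional mice, without overlap (log2 fold change -1.35, adjusted p = 4.6e-06). Of 11 measured members of the list, 7 fell and 0 rose, with a median log2 fold change of -1.35. In the class I pathway, 12 of 16 members fell, among them Psmb8, an interferon-induced proteasome subunit (log2 fold change -2.43), and Tap1, a peptide transporter (-1.69). H2-Q10, a nonclassical class I gene, was the 1 member that rose (log2 fold change 0.50).

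Of 21 genes typically induced by interferon-gamma, 18 fell and 0 rose, with a median log2 fold change of -1.09. Ido1, an enzyme that degrades tryptophan, was 4.58, 4.48, 4.29 and 4.19 in germ-free mice, against 7.01, 7.18, 8.07 and 7.08 in conventional mice (7.73-fold lower, adjusted p = 1.8e-09). Conventional replicate 3 was the highest, and the lowest conventional mouse was still more than 2 log2 units above the highest germ-free mouse. The T cell attracting chemokine gene Cxcl9 was 4.95, 4.42, 4.78 and 4.73 in germ-free mice and 6.56, 7.51, 7.60 and 6.79 in conventional mice (log2 fold change -2.40, standard error 0.32). The guanylate-binding protein gene Gbp8 fell by 1.76 and the apolipoprotein L gene Apol10a had a log2 fold change of -1.94. Ifng itself did not pass, at 2.98 to 3.15 in germ-free and 2.93 to 3.10 in conventional mice (log2 fold change 0.09, adjusted p = 0.65), and these low values overlapped.

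Of 35 genes of the type I and III interferon response, 23 fell and 0 rose, with a median of -0.54. Ifit1, an RNA-binding antiviral protein gene, was 4.82, 4.87, 5.36 and 4.26 in germ-free mice and 7.41, 7.69, 8.30 and 7.10 in conventional mice (6.94-fold lower, with a standard error of 0.29 on the log2 scale). The immunity-related GTPase gene Gm12250 was 4.16, 4.26, 3.81 and 4.20 in germ-free mice, against 5.84, 6.07, 6.48 and 5.75 in conventional mice (log2 fold change -1.93). Neither gene's groups overlapped. Within the conventional group, replicates 2 and 3 had higher means over both interferon lists than replicates 1 and 4 (0.72 and 0.84 against 0.37 and 0.31 for the interferon-gamma list, as the mean deviation of its members from their average over the 24 arrays), whereas the 4 germ-free mice lay between -0.64 and -0.50.

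Because the interferon-responsive genes fell together, their promoters were searched for the core of the interferon-stimulated response element, the site that IRF and STAT proteins bind, in the 250 bases before the RefSeq start of transcription (GRCm38.p6). The motif was GAAA, any 2 bases and GAAA again, searched on both strands, so that it reads TTTC, any 2 bases and TTTC on the other. It occurred in 2.98% of the 32851 promoters listed and in 3.42% of the 14749 tested genes with a promoter in the table. It occurred in 6.62% of the 1253 genes called lower with a promoter in the table and in 2.11% of the 1090 called higher. Of the 41 genes of both interferon lists with a promoter in the table, called or not, 18 held it (43.9%), and of the 31 of these that fell, 15 did (48.4%). Below are the stretches around the first match for the 5 of these with the largest decrease, 5′ to 3′ on the strand of the gene, with the motif in capitals.
Ifit1: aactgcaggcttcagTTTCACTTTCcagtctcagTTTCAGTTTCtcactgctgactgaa
Apol10a: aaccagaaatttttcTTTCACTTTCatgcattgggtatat
Gm12250: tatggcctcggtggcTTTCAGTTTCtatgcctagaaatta
Cxcl10: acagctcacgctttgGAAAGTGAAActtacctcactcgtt
Gbp2: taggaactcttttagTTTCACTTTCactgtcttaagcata
These lie at chr19:34640770-34640828 (plus strand), chr15:77476981-77477020 (plus), chr11:58183737-58183776 (plus), chr5:92349078-92349117 (minus) and chr3:142620589-142620628 (plus), and the first match begins 104, 51, 91, 213 and 59 bases before the start of transcription. Only Ifit1 has 2 matches within the stretch shown. Cxcl10, the gene of a chemokine that draws T cells, fell by 1.50 on the log2 scale. Gbp2, mentioned here because of its promoter match, fell by 1.14. A match is a sequence in a window and was not tested as a binding site.

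Genes of intraepithelial and cytotoxic lymphocytes, the T cells that lie within the epithelium, fell in 21 of 36 measured cases and rose in 0, with a median log2 fold change of -0.53. Gzma, a granzyme of killer cells, was 3.68, 3.71, 3.33 and 3.52 in germ-free mice and 6.78, 7.19, 7.44 and 6.49 in conventional mice (10.7-fold lower, standard error 0.32 on the log2 scale). Ccl5, a chemokine that these cells store, was 5.17, 4.72, 4.56 and 4.65 in germ-free mice, against 7.59, 7.96, 8.15 and 7.70 in conventional mice. Every germ-free mouse was more than 2 log2 units below every conventional mouse in both genes. The T cell receptor components Cd3g and Cd3e fell by 2.52 and 2.25, the co-receptor gene Cd8a by 2.12 and Cd7 by 2.47. Of 12 genes of helper and regulatory T cells, 2 fell and 0 rose, beside 8.58% of all genes lower, and none of 12 mast cell genes was called in limma (0 at an adjusted p under 0.05).

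Antibody genes made up 9 of the 15 largest decreases. Ighm, the heavy chain of IgM, was 6.46, 5.61, 6.77 and 6.79 in germ-free mice and 9.50, 9.65, 9.50 and 9.61 in conventional mice (8.93-fold lower, with a standard error of 0.28 on the log2 scale). Jchain, which links IgA and IgM into polymers, was 6.94, 6.50, 6.78 and 6.54 in germ-free mice, against 9.69, 9.91, 9.75 and 9.58 in conventional mice. The conventional mice were nearly level with each other in both genes, and no germ-free mouse came near them. Of 18 immunoglobulin genes measured singly, 14 fell and 0 rose, with a median of -3.01. Their variable segments are near copies of each other, so single members are uncertain. Of 27 genes of IgA plasma cells, 16 fell and 0 rose: Mzb1, a secretory factor of plasma cells, fell by 1.55, the gut-homing receptor gene Ccr9 by 1.32, and Pigr, the receptor that carries IgA across the epithelium, by 0.65.

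Of 22 mature B cell genes measured, 5 fell and 1 rose (median -0.04), beside 8.58% of all genes lower and 7.27% higher. Ighm was among those that fell, and the inhibitory receptor gene Cd72 fell by 0.75. Ms4a1, which encodes CD20, was 3.91, 3.40, 4.93 and 5.00 in germ-free mice, against 3.98, 4.13, 3.84 and 3.83 in conventional mice. Germ-free replicates 3 and 4 were above every conventional mouse and replicates 1 and 2 were not, and the gene was not called (log2 fold change 0.37, adjusted p = 0.33). Pax5, the factor that defines the B cell lineage, was the 1 that rose, with 3.21, 3.43, 3.94 and 3.82 in germ-free mice and 3.31, 3.09, 3.27 and 3.18 in conventional mice, which overlapped (adjusted p = 0.038). The call of Pax5 was lost when any of 5 mice was left out: germ-free replicate 3 or 4, or conventional replicate 2, 3 or 4 (log2 fold change 0.27 to 0.40). It was also lost with array weights (0.32), cyclic loess (0.34), the 8 arrays alone or the 12 arrays of the long-chain and water groups (0.38 each). With the adipocyte and smooth muscle covariates it was lost as well (0.32 and 0.40). The mean deviation of the whole list was 0.25 and 0.31 in germ-free replicates 3 and 4, against -0.22 and -0.32 in replicates 1 and 2 and 0.11 to 0.30 in conventional mice.

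Of 29 genes of macrophages and dendritic cells, 16 fell and 1 rose. Csf1r, the growth factor receptor of macrophages, was 6.59 to 6.72 in germ-free and 7.46 to 7.64 in conventional mice (log2 fold change -0.87, adjusted p = 2.9e-08). The complement component gene C1qb fell by 0.61. Among 43 genes that sense microbes, 19 fell and 1 rose, with a median of -0.27. Clec2d, a ligand of a natural killer cell receptor, fell by 0.82 and Tlr1, a sensor of bacterial lipoproteins, by 0.70. Among markers of other cell types of the gut wall, 16 of 19 smooth muscle genes fell (median -0.45), as did 13 of 19 genes of enteric neurons and glia (median -0.61). Of 8 genes of endothelium and blood, 5 fell and 1 rose (median -0.40). Of 12 genes of fibroblasts and matrix, 2 fell and 0 rose (median -0.20), beside 8.58% of all genes lower. The mean deviation of the smooth muscle list was -0.22 to -0.10 in germ-free and 0.14 to 0.33 in conventional mice, and that of the neuronal list -0.28 to -0.08 and 0.16 to 0.42. With the smooth muscle list as a covariate, the median of the MHC class II list was -1.35 and that of the interferon-gamma list -1.05, while that of the Paneth cell list was -0.17 (-0.47 without it) and that of the stem cell list 0.03 (-0.12 without it). Of 13 epithelial genes, 2 rose and 1 fell (median 0.02), beside 7.27% of all genes higher and 8.58% lower.

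**Figure D2:**
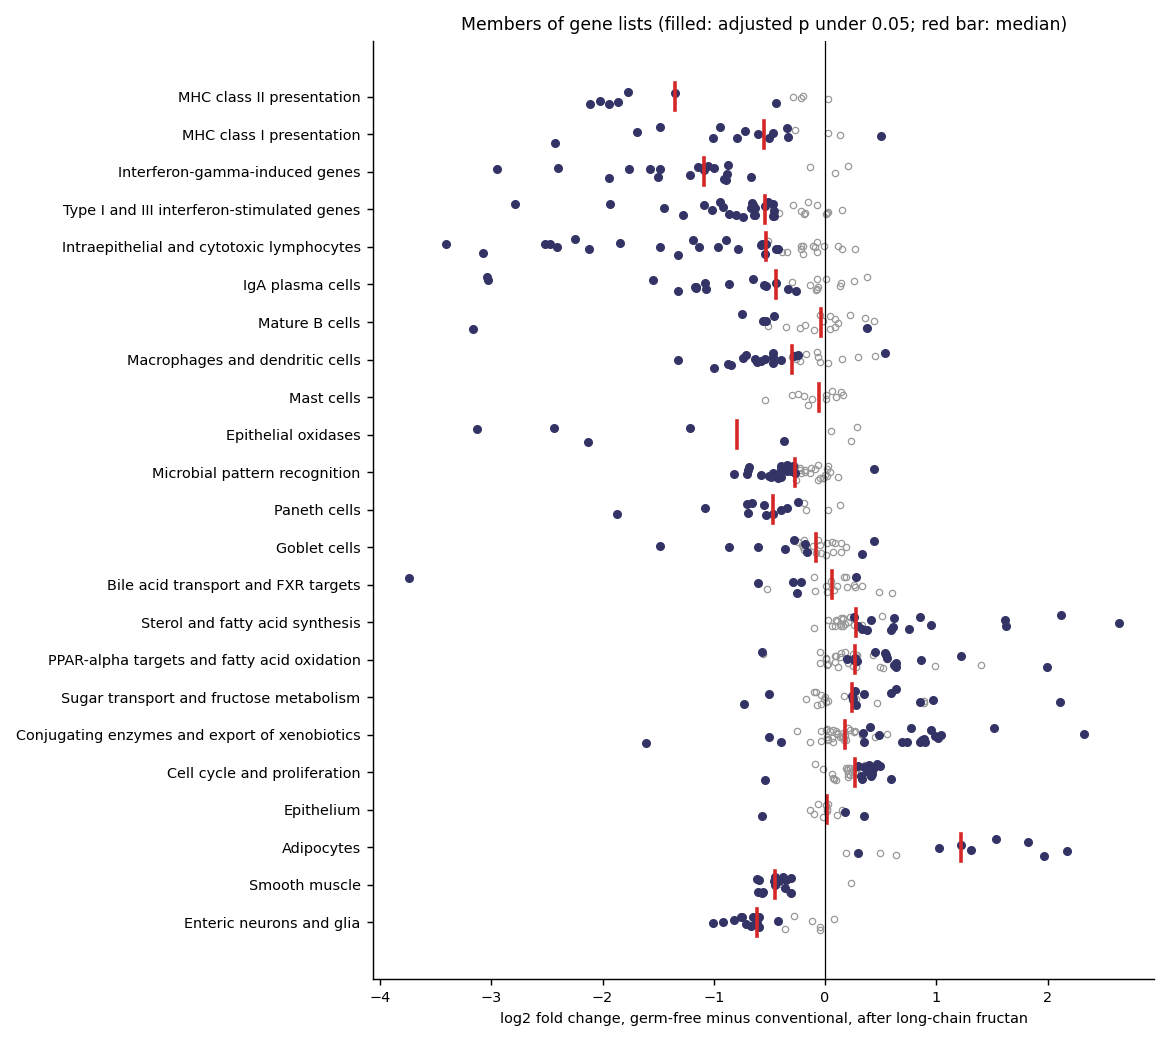
Log2 fold change, germ-free minus conventional, after long-chain fructan, for the measured members of 23 gene lists; each point is a gene, filled points passed an adjusted p under 0.05, and the red bar is the median of the list. The medians of the interferon and antigen presentation lists lie left of 0 (-1.35 to -0.54), that of the adipocyte list lies right of it (1.22), and mast cell genes are all open.

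Defence genes of the epithelium were lower in germ-free mice. DUOX2, an oxidase that makes hydrogen peroxide at the cell surface, needs the partner DUOXA2. Duoxa2 was 6.21, 5.77, 5.87 and 5.77 in germ-free mice, against 8.64, 9.03, 9.25 and 9.20 in conventional mice (8.73-fold lower, standard error 0.28), and Duox2 was 7.26, 6.92, 7.23 and 7.21 in germ-free mice and 9.13, 9.18, 9.56 and 9.26 in conventional mice (4.37-fold lower, standard error 0.20). Both genes separated the groups completely. Nos2, the inducible nitric oxide synthase, fell by 2.44 and Cyba, the membrane subunit of NADPH oxidases, by 1.21, so that 5 of 8 measured oxidase genes fell and 0 rose. Of 19 genes that IL-22 induces in the epithelium, 12 fell and 1 rose, with a median of -1.08. Duoxa2, Nos2 and Duox2 are counted in this list and among the oxidases. Stat3 is counted in it and in the pathway list that follows. Fut2, Retnlb, Reg3g and Reg3b, described below, are also among its genes that fell. Of 17 measured genes of the IL-22 and IL-17 pathway itself, 3 fell (Il22ra2, Il23r and Stat3) and 0 rose, beside 8.58% of all genes lower. The median of that list was 0.004.

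Fut2, the enzyme that puts fucose on the epithelial surface, was 4.90, 4.90, 4.91 and 5.09 in germ-free mice and 7.03, 6.71, 6.40 and 6.80 in conventional mice (3.46-fold lower, adjusted p = 1.1e-06). Gcnt1, which branches O-glycans, averaged 4.28 ± 0.24 in germ-free mice and 6.68 ± 0.30 in conventional mice (SD, n = 4 each), and was 5.28-fold lower in limma (adjusted p = 8.9e-10). Neither overlapped. The glycosylation list as a whole had 6 genes lower and 2 higher of 27, beside 8.58% and 7.27% of all genes. Its median was -0.06. Reg3g and Reg3b, antibacterial lectins, fell by 1.24 and 0.85 and Retnlb, a goblet cell protein, by 1.48. Reg3a moved the other way, at 8.48, 8.28, 7.89 and 8.40 in germ-free mice, against 7.57, 7.10, 7.22 and 7.21 in conventional mice (1.98-fold higher, adjusted p = 0.00067), and its call was lost with the smooth muscle covariate (log2 fold change 0.61).

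Of 15 Paneth cell genes measured singly, 11 fell and 0 rose (median -0.47, or -0.17 with the smooth muscle list as a covariate), and 13 of the 28 listed were not analysed here, among them most defensins. The phospholipase gene Pla2g2a fell by 1.08, the pentraxin gene Mptx1 by 1.87, Mmp7, which activates defensins, by 0.69 and Defa24 by 0.47. With the smooth muscle covariate Mmp7 lost its call, and with the adipocyte covariate Defa24 did. Of 27 goblet cell genes, 7 fell and 2 rose, beside 8.58% of all genes lower and 7.27% higher. Muc2, the main gel-forming mucin, was 12.52 to 12.65 in germ-free and 12.60 to 12.78 in conventional mice and was not called (log2 fold change -0.11), whereas the membrane mucin genes Muc4 and Muc13 fell by 0.60 and 0.28. Of 31 genes of tuft cells and the type 2 response, 9 fell and 2 rose, beside 8.58% of all genes lower and 7.27% higher. The gasdermin gene Gsdmc2 was 4.05-fold lower and the cornified envelope gene Sprr1a 2.46-fold higher, a call lost with the smooth muscle covariate.

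Fgf15, through which the ileum limits bile acid synthesis in the liver, was 6.29, 4.54, 5.56 and 4.89 in germ-free mice, against 7.78, 9.70, 9.32 and 9.45 in conventional mice (13.4-fold lower, adjusted p = 3.1e-05, with a log2 fold change of -3.74 ± 0.56 SE). The range within each group was wide, conventional replicate 1 was the lowest of its group, and there was no overlap. The bile acid exporters Slc51a and Slc51b fell by 0.25 and 0.29, and Pde9a by 0.60. With the adipocyte covariate both exporters lost their call (log2 fold changes -0.29 and -0.26), and with the smooth muscle covariate Slc51b did (-0.28). The call of Slc51a was lost when any of 4 mice was left out: conventional replicate 2 or 4, or germ-free replicate 2 or 3 (log2 fold change -0.24 to -0.23). Of 22 genes of bile acid transport and FXR targets, 5 fell and 1 rose, beside 8.58% of all genes lower and 7.27% higher. Slc6a14, a carrier of amino acids, was 6.20, 7.82, 8.00 and 7.83 in germ-free mice and 10.46, 10.09, 10.42 and 10.53 in conventional mice (7.55-fold lower, standard error 0.55), with germ-free replicate 1 far below its group.

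Genes of fat synthesis were higher in germ-free mice. Of 34 genes of sterol and fatty acid synthesis, 15 rose and 0 fell, with a median log2 fold change of 0.28. Thrsp, a regulator of lipogenesis, was 9.78, 8.95, 10.00 and 7.22 in germ-free mice, against 6.70, 5.75, 6.92 and 6.03 in conventional mice (6.23-fold higher, standard error 0.48). Me1, malic enzyme, which supplies NADPH, was 9.81, 9.23, 10.14 and 8.25 in germ-free mice and 7.26, 6.85, 7.56 and 7.26 in conventional mice (4.35-fold higher, standard error 0.32). Germ-free replicate 4 was the lowest germ-free mouse in both genes and in Fasn, fatty acid synthase (8.74, against 9.70 to 10.55 in the other 3 germ-free and 7.86 to 8.49 in the conventional mice), yet no group overlapped. Idi1, an enzyme of the sterol branch, rose by 0.59 on the log2 scale.

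Adipocyte genes moved with these mice. Adipoq, which encodes the fat hormone adiponectin, was 8.16, 6.76, 8.04 and 6.51 in germ-free mice, against 6.92, 4.73, 5.71 and 4.83 in conventional mice, and Retn, which encodes resistin, was 9.61, 9.09, 10.21 and 7.89, against 8.08, 6.21, 7.38 and 6.44. Germ-free replicates 1 and 3 were the highest and conventional replicate 1 exceeded germ-free replicate 4 in both, so the groups overlapped, although both genes passed the test (adjusted p = 0.0054 and 0.00071). Of 11 adipocyte genes, 8 rose and 0 fell, with a median of 1.22, and the mean deviation of the list was 1.00, 0.24, 1.21 and -0.11 in germ-free mice and 0.08, -0.98, -0.53 and -0.82 in conventional mice. With this mean as a covariate, an alternative added after the data were seen, the log2 fold change of Thrsp was 0.85 and that of Fasn 0.52, both past no threshold, and the median of the sterol and fatty acid synthesis list was 0.21. Other increases that lost their call were those of Mrap (0.27), A530016L24Rik (0.49), Cyp2e1 (0.27), Hsph1 (0.59) and Hsp90aa1 (0.47), whereas Me1 (1.20), Scd1 (0.81), Aadac (1.85) and Rab30 (1.63) kept theirs.

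**Figure D3:**
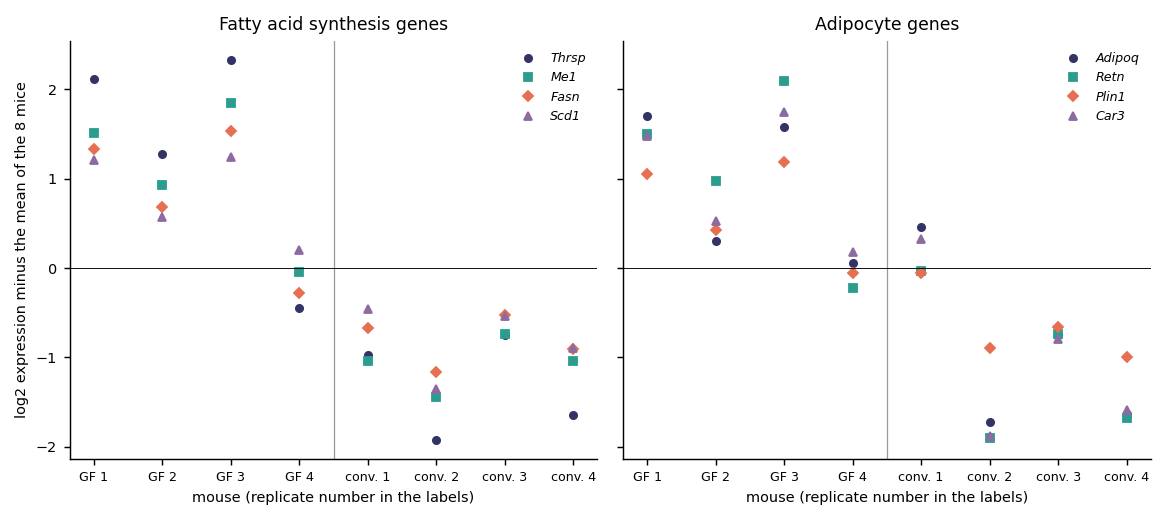
Log2 expression minus the mean of the 8 mice, by mouse, for 4 fatty acid synthesis genes (left) and 4 adipocyte genes (right), with the 4 germ-free mice (GF) left of the 4 conventional mice; each symbol is a gene, and replicate numbers have no order. In both panels germ-free replicates 1 and 3 are the highest mice and germ-free replicate 4 the lowest germ-free mouse, at 7.22 for Thrsp and 6.51 for Adipoq.

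Lipid oxidation, sugar and xenobiotic genes rose in part. Of 42 PPAR-alpha targets and genes of fatty acid oxidation, 14 rose and 1 fell (median 0.27). Angptl4, an inhibitor of lipoprotein lipase, was 9.25, 8.86, 8.35 and 9.01 in germ-free mice, against 6.94, 6.80, 6.50 and 7.24 in conventional mice (3.98-fold higher, standard error 0.25). Its 4 germ-free values all lay more than 1 log2 unit above the conventional ones, and with the adipocyte list as a covariate its call was kept. Acox2, of peroxisomal oxidation, rose by 0.86. Of 34 genes of lipid absorption, 9 rose and 4 fell, beside 7.27% of all genes higher and 8.58% lower. Angptl4, Cidec and Ppara are counted here and among the PPAR-alpha targets, and Cidec, Cd36 and Lipe here and among the adipocyte genes. With the adipocyte covariate the call of Cidec was lost (log2 fold change 0.35). The sterol exporter gene Abcg8 fell by 0.56, a call lost with the smooth muscle covariate (log2 fold change -0.42).

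Of 28 genes of sugar transport and fructose metabolism, 10 rose and 2 fell, with a median of 0.24. Slc5a4b, a member of the sodium glucose carrier family, was 7.86, 6.42, 6.54 and 7.30 in germ-free mice and 4.65, 5.26, 5.51 and 4.24 in conventional mice (4.32-fold higher, standard error 0.34). Germ-free replicates 1 and 4 were the highest, and the groups did not overlap. Tkfc, of fructose breakdown, rose by 0.64, the trehalase gene Treh by 0.85 and the sucrase-isomaltase gene Sis by 0.35. The call of Sis was lost with the smooth muscle covariate (log2 fold change 0.28). The main glucose carrier gene Slc5a1 was not called in limma (log2 fold change -0.08, adjusted p = 0.54).

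Among 51 conjugating enzymes and exporters of xenobiotics, 17 rose and 3 fell (median 0.18). Akr1c19, an aldo-keto reductase, was 9.27, 9.07, 9.14 and 9.02 in germ-free mice, against 7.21, 5.90, 7.14 and 6.94 in conventional mice (5.02-fold higher, adjusted p = 7.5e-10), and Akr1c13 was 7.98 to 8.09 in germ-free and 6.20 to 6.68 in conventional mice. Conventional replicate 2 was lowest in both. Gclc, the rate-limiting enzyme of glutathione synthesis, rose by 0.95 and the glutathione transferase gene Gsta4 by 0.99. Of 40 cytochrome P450 and related genes, 13 rose and 5 fell: Cyp2j6 rose by 1.13 and Cyp4b1 by 1.19, while Cyp3a25 fell by 1.80. The carboxylesterase genes Ces2a and Ces1f went opposite ways, with log2 fold changes of -2.13 and 1.24. In the retinoid list, 9 of 26 genes rose and 1 fell, among them Rdh7 (log2 fold change 1.40), a retinol dehydrogenase, and Lrat (0.81), which stores retinol as ester.

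Tfrc, the transferrin receptor that imports iron, was 9.43, 9.54, 9.98 and 9.70 in germ-free mice, against 8.11, 7.71, 8.38 and 7.82 in conventional mice (3.15-fold higher, standard error 0.11, adjusted p = 8.2e-11). Tat, a liver-type enzyme of tyrosine breakdown, was 4.77, 4.89, 5.07 and 4.93 in germ-free mice and 9.67, 8.07, 8.03 and 8.47 in conventional mice (12.5-fold lower, adjusted p = 2.9e-08). The 4 germ-free mice were close together in Tat (4.77 to 5.07) and less so in Tfrc (9.43 to 9.98). Of 34 cell cycle genes, 14 rose and 1 fell, with a median of 0.27: Ccna2, the S and G2 phase cyclin, was 8.55 to 8.69 in germ-free and 7.66 to 8.31 in conventional mice (log2 fold change 0.59), Pcna, of the replication fork, rose by 0.38, and Ccnd1 fell by 0.54. Of 22 immediate-early and heat shock genes, 4 rose and 1 fell (median 0.01), beside 7.27% of all genes higher and 8.58% lower. The chaperone genes Hsph1 and Hsp90aa1 rose by 1.17 and 0.72, and both calls were lost with the adipocyte covariate.

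The pair after long-chain fructan was then set against the other pairs of germ-free and conventional groups, which share no mice with it but share the estimate of the spread. On water, 5.6% of genes were higher and 7.93% lower in germ-free mice, and after short-chain fructan 8.84% and 6.21%. Of the 2983 genes called after long-chain fructan, 1701 were also called on water, which is 57.0% of these and 66.8% of the 2547 called on water, and 1617 after short-chain fructan (54.2%, and 57.1% of 2832). All of the shared genes had the same direction. In all 3 pairs, 1263 genes were called, and 928 were called after long-chain fructan only. A call after long-chain fructan only is not a test of a difference between pairs, which was tested separately below. Of all genes called after long-chain fructan, shared ones included, 97.4% had the same direction on water and 95.3% after short-chain fructan. Across all genes the fold changes correlated with r = 0.83 against water and r = 0.78 against short-chain fructan, a description across genes that share their arrays.

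**Figure D4:**
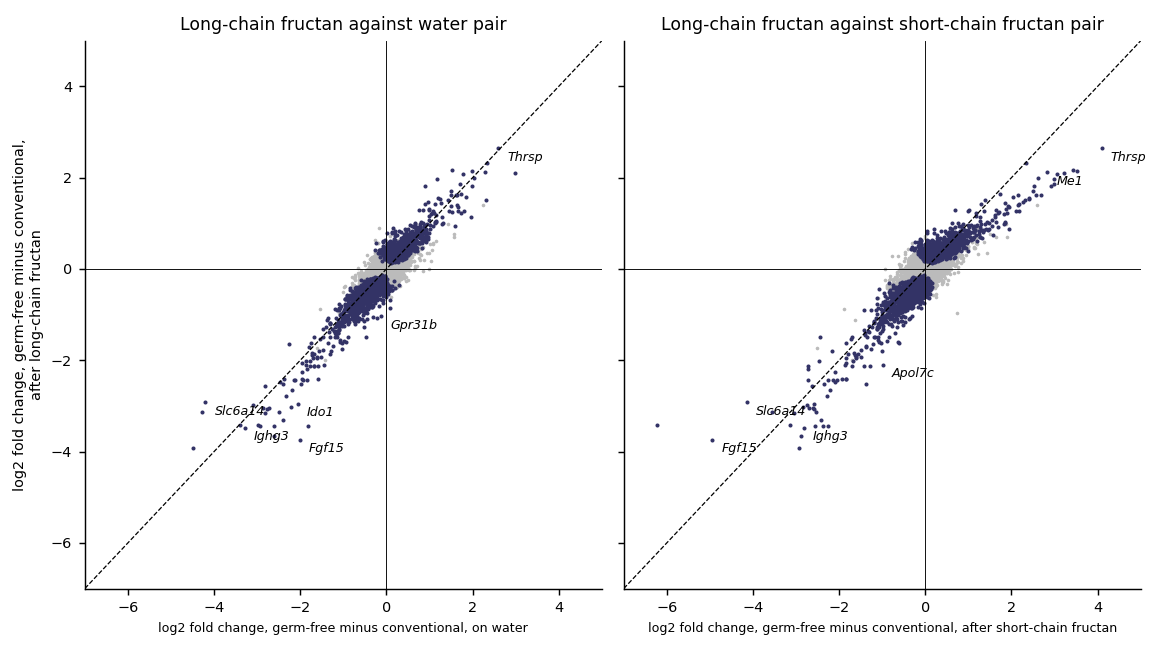
Log2 fold change, germ-free minus conventional, after long-chain fructan (vertical) against that on water (left) and after short-chain fructan (right) for 18820 genes; dark points were called after long-chain fructan, and the dashed line marks equal changes. The points follow the line with r = 0.83 and r = 0.78, and Fgf15 lies below it on the left (-3.74 against -2.01) and above it on the right (-3.74 against -4.94).

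The difference between pairs was tested itself, as an interaction. In limma, 0 genes passed an adjusted p under 0.05 against water, against short-chain fructan and against the mean of both (0% each), and the intensity-based moderated t gave 0 as well. At an unadjusted p under 0.05 there were 704 genes against water (3.74%), 1343 against short-chain fructan (7.14%) and 1017 against the mean of both (5.4%). Of the 15 genes with the largest increases, 14 had a larger increase after short-chain fructan and 6 a larger increase on water. Of the 15 largest decreases, 2 were larger after short-chain fructan and 2 on water. Both sets were picked as the extremes after long-chain fructan, and that choice alone favours smaller changes in the other pairs. These counts therefore cannot show that decreases were stronger after long-chain fructan. Thrsp is an example of a larger increase after short-chain fructan, with a log2 fold change of 2.64 after long-chain and 4.10 after short-chain fructan. The median of the adipocyte list was 1.22 after long-chain fructan, 1.87 after short-chain fructan and 0.89 on water. The median of the MHC class II list was -1.35 after long-chain fructan, -1.33 after short-chain fructan and -1.21 on water. That of the interferon-gamma list was -1.09, -0.84 and -0.79 in the same order, that of the IL-22-induced genes -1.08, -0.63 and -0.85, and that of the mature B cell list -0.04, -0.25 and -0.29. That of the 5 apolipoprotein L genes was -1.05, -0.47 and -0.31, and these differences between list medians were not tested.

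Gpr31b, a gene of the GPR31 family of G protein-coupled receptors, had the smallest p against water and against the mean of both pairs. It was 4.67, 4.30, 4.66 and 4.09 in germ-free and 5.54, 5.34, 5.32 and 5.62 in conventional mice after long-chain fructan (log2 fold change -1.03, adjusted p = 1.1e-06). On water it was 4.81, 5.09, 5.04 and 5.10 in germ-free and 4.92, 5.20, 5.29 and 5.09 in conventional mice (log2 fold change -0.12). The difference of -0.91 did not pass adjustment (standard error 0.17, adjusted p = 0.26, and 0.15 against the mean of both pairs). Apaf1, which starts the apoptosome, had fold changes of -0.88 after long-chain fructan and -0.45 on water, Grhpr, a reductase of glyoxylate, 0.76 and 0.19, and Tmem71 -0.68 and 0.08, none passing as a difference. Sarm1 (0.42 and -0.16) and H2-M2 (-0.54 and 0.04) completed the 6 genes of smallest p against water. Against short-chain fructan these were Pmepa1, BB014433, Spata45, Nmb, Creb3l1 and Aldh1a2, with adjusted p from 0.44 to 0.59. Aldh1a2, which makes retinoic acid, had log2 fold changes of -0.33 after long-chain and 0.39 after short-chain fructan.

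**Figure D5:**
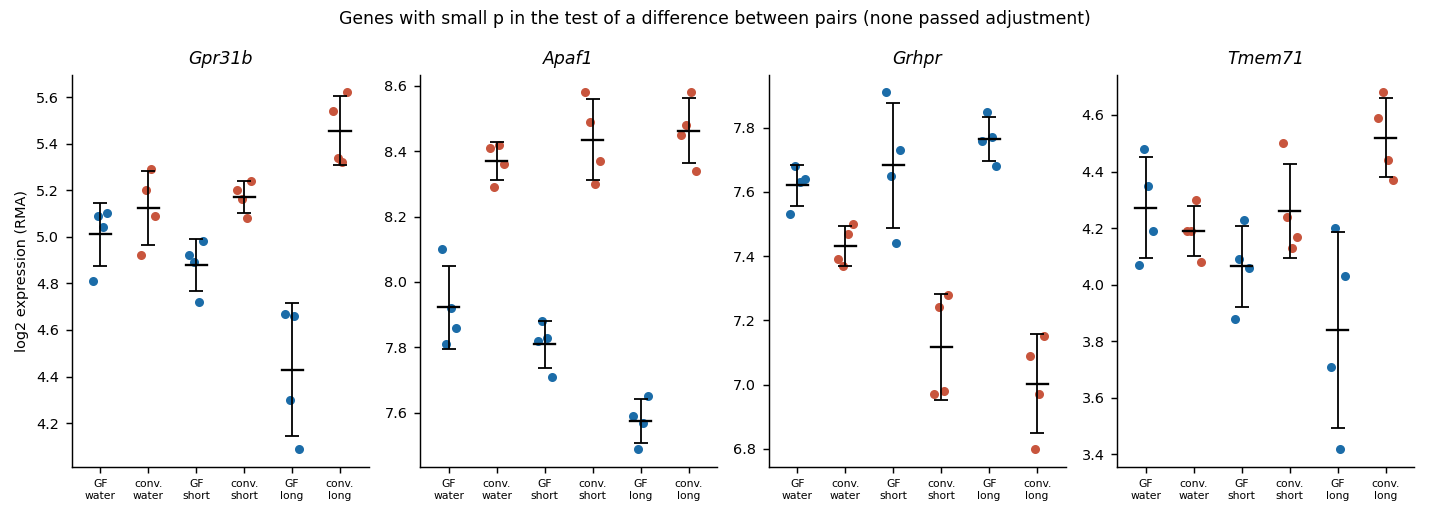
Log2 expression of Gpr31b, Apaf1, Grhpr and Tmem71 in the germ-free (GF, blue) and conventional (red) mice on water, after short-chain and after long-chain fructan; points are mice, bars the mean and SD of 4 mice, and the axes do not start at 0. The 2 groups overlap for Gpr31b on water and lie apart after long-chain fructan (4.09 to 4.67 against 5.32 to 5.62), but no difference between pairs passed adjustment.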

How the data were processed

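The authors deposited log2 expression values of Affymetrix Mouse Gene 1.1 ST arrays, made with RMA (background correction, quantile normalization between the 24 arrays, summary of probes). The methods name a remapped probe set definition, but the deposited values carry the manufacturer's probe set numbers, so the definition is not settled. Of 35556 probe sets, 21218 have 1 symbol, 1881 several and 12457 were not listed. For 1386 genes with several sets the set with the highest mean was used. Groups came from the sample titles. Each gene was fitted in limma 3.58.1 (R 4.3.3) with the means of 6 groups over 24 arrays and a prior following intensity, tested on simulated data. Genes named were the 15 highest and 15 lowest without overlap, up to 5 members of smallest p per list, those the study names, the 6 of smallest p of each interaction, checks of the labels, and, chosen after their values were seen, Ciita, Fabp6, Gbp2, H2-Q10, Ifng, Muc2, Pax5, Slc10a2 and Slc5a1. Of those the study names, Saa1 and Ighd have no probe set of 1 symbol and were not tested. The members and lists were chosen with earlier results of these data known. All lists were described by counts and medians. The number of arrays limits the precision. Samples are separate mice, and detection calls were not used.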

Additional observations from a re-analysis of the deposited data

Results flagged for a closer look

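Among the genes named, 1 mouse lay far from the other 3 of its group in 14 of 312 groups by Dixon's ratio of the gap to the whole range, at its 95% critical value, where chance gives about 1 in 20 groups. In germ-free mice, the lowest of 4 was Igkv5-43 at 2.12, Duox2 at 6.92, Gclc at 8.97 and Aldh1a1 at 10.43 in replicate 2, Slc6a14 at 6.20 and BB014433 at 2.99 in replicate 1, and Gsdmd at 8.31 in replicate 3. The highest of 4 was Fut2 at 5.09 in replicate 4 and Slc5a1 at 10.65 in replicate 2. In conventional mice, Ido1 was highest at 8.07 and Cd72 lowest at 5.95 in replicate 3, and in replicate 4 Pigr was lowest at 11.94, Casp4 lowest at 8.38 and Cyp2j6 highest at 8.39.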

How the results depend on the processing

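The 2983 genes called numbered 1823 by the thresholds of the study (unadjusted p under 0.01 and fold change over 1.3) and 1765 at an adjusted p under 0.05 with a fold change over 1.3. They numbered 2023 in a fit of the 8 arrays alone and 2267 to 2902 with 1 mouse left out; without conventional replicate 2, 906 rose and 1361 fell, and without germ-free replicate 2, 1508 rose and 1394 fell. With each array's mean of a marker list as a covariate, added after the data were seen, 1548 were called with the adipocyte and 1200 with the smooth muscle list, of which 475 and 494 rose. These covariates differ between the groups and take part of the group difference. Genes called with the same direction on water then numbered 1049 and 478, and after short-chain fructan 382 and 671. With the adipocyte covariate, 1 gene passed in the difference against water (Gpr31b) and 1 against short-chain fructan (Pmepa1), where otherwise 0 did. The replicate numbers did not pair the mice (r of deviations of same-numbered mice 0.04, 0.14, -0.02 and 0.04), and with the replicate block 2964 genes were called and no call of a named gene changed. Of 156 named genes, 22 kept their sign but lost their call with the adipocyte covariate, and 26 with the smooth muscle covariate. Another 3 changed sign, all with covariates: Adipoq (-0.004) and Xist (0.01) with the adipocyte list and Slc10a2 (-0.19) with the smooth muscle list. Of these, Adipoq had been called in the main fit and is not counted among the 22. Leaving out dim genes moved the medians of 14 lists.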

Other observations

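Other lists are set beside the shares over all genes, 7.27% higher and 8.58% lower in germ-free mice. Of 17 genes of cell death, 7 fell and 0 rose: the inflammatory caspase gene Casp4 was 6.98 to 7.46 in germ-free and 8.38 to 8.58 in conventional mice, the pore-forming gene Gsdmd fell by 0.61 and Mlkl, of necroptosis, by 0.80 on the log2 scale. The complement gene C2 was 4.99 to 5.39 in germ-free and 6.35 to 6.73 in conventional mice, whereas the acute phase gene Orm1 rose by 1.43 but lost its call with the adipocyte covariate (log2 fold change 0.15) and with the smooth muscle covariate (1.15), and of 17 genes of complement and acute phase 2 rose and 1 fell.

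Of 29 enteroendocrine genes, 6 fell and 1 rose. Scg3 and Cpe, which serve in secretory granules, fell by 0.86 and 0.79, beside the lower neuronal genes described above, which share granule proteins. Of 19 stem cell genes, 5 fell and 0 rose, among them Lgr5 (log2 fold change -0.35). Of 18 clock genes, 1 rose (Clock, 0.29) and 2 fell, beside 7.27% of all genes higher and 8.58% lower. The calls of Lgr5 and Clock were lost with either covariate. Of 8 genes at substrain and colony loci, 2 fell (Cyfip2 by 0.99 and Dock2 by 0.55) and 1 rose (Ide). Nnt, also in this list, was 8.60 to 8.69 in germ-free and 8.49 to 8.61 in conventional mice. Whether the loci differ in sequence was not tested.

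Of the 1881 probe sets that carry several gene symbols, 119 were higher and 162 lower in germ-free mice without overlap of the values, and they were left out of the tests. Among the lower was a set shared by Saa1, which the study names, and Saa2. It was 1.97, 2.55, 2.07 and 2.24 in germ-free mice, against 7.47, 6.69, 6.76 and 6.90 in conventional mice (difference of means -4.75).

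Car1, which encodes a carbonic anhydrase, was looked at after its values were seen, because it had the lowest fold change of all genes after short-chain fructan (log2 fold change -6.23). After long-chain fructan it was 5.43, 7.84, 8.79 and 5.47 in germ-free mice, against 12.01, 6.57, 11.75 and 10.87 in conventional mice (log2 fold change -3.42, standard error 1.19). Conventional replicate 2 lay below germ-free replicates 2 and 3, so the groups overlapped, although the gene passed the test.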
